A study of Mus musculus with 4 samples.

Results

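The genes described here are the G-protein-coupled receptors of the mouse that carry the symbols Gpr plus a number or Adgr plus a letter and a number, other than Gpr119. The symbol pattern took in 95 of the 55536 genes of the deposited count table, 68 Gpr genes and 27 adhesion (Adgr) genes. Most were named as orphans, that is, as receptors whose natural ligand was unknown when they were found. The pattern is one of names and not of function: it also holds receptors with a known ligand, such as the zinc receptor Gpr39, and membrane proteins that sit inside the cell, such as Gpr107 and Gpr108 of the Golgi apparatus. Apart from Gpr119, it leaves out 18 other symbols that begin in the same way, among them Gpr37l1, Gpr137b and Gprc5b, and relatives under other names. The naming rule uses no measured value.

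G-protein-coupled receptors cross the cell membrane with a bundle of helices and pass a signal to G proteins when a ligand binds outside the cell. In islets, receptors that couple to stimulatory G proteins raise cyclic AMP and favour hormone release, and receptors that couple to inhibitory ones restrain it. Adhesion receptors add a long extracellular part that binds matrix or neighbouring cells. They cut themselves next to the membrane, and the stub exposed by the cut acts as a tethered agonist.

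RNA was taken from pancreatic islets of male C57BL/6 mice aged 8 weeks, prepared by collagenase digestion, and sequenced as polyadenylated RNA in bulk. There were 2 insulin-depleted libraries, in which an insulin depletion panel was applied during library preparation, and 2 non-depleted libraries without that step. The protocol also describes dissociation for single-cell work and does not say whether the islets of these libraries were dissociated. The depletion acts on the library and not on the animal, and no genotype other than the common strain is given. The labels call the libraries of each group biological replicates 1 and 2, but every column name carries the same pair of codes, so whether they came from separate animals is not known, and each p-value reflects variation among libraries that may be technical. The non-depleted columns are further marked with what looks like an abbreviation of size selection, which the insulin-depleted columns lack, so a difference in size selection cannot be told apart from depletion.

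Library totals ran from 19316173 counts in insulin-depleted replicate 1 to 65030111 in insulin-depleted replicate 2, with the non-depleted libraries between them. Insulin transcripts (Ins1 and Ins2) took 0.195 and 0.264% of counts in insulin-depleted replicates 1 and 2, against 4.14 and 3.97% in non-depleted replicates 1 and 2. Levels are therefore given as CPM, counts scaled to 1000000 per library with Ins1 and Ins2 left out of the total. Islet hormone genes were abundant, with Iapp, the amylin gene of beta cells, at 17396 to 18761 CPM and Gcg, the glucagon gene of alpha cells, at 11136 to 12812 CPM. Markers of surrounding tissue were present as well: the 10 acinar (digestive enzyme) markers summed to 13384 and 5528 CPM in insulin-depleted replicates 1 and 2, against 13360 and 5517 CPM in non-depleted replicates 1 and 2. The acinar sum was thus higher in both libraries numbered 1 than in both numbered 2, at nearly equal levels in both groups.

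Receptor expression was concentrated in few members. Of the 95 receptors, 43 had a mean of at least 1 CPM over the 4 libraries, 43 others had some counts but a mean under 1 CPM, and 9 had no count in any library. A mean of 10 CPM was reached by 24 members and 100 CPM by 4. Taken as a share of the counts of all 95 receptors, 5 of them (Adgrg1, Gpr158, Adgrf5, Adgrl1 and Gpr107) held 49.8% in each of the insulin-depleted libraries, against 50.2 and 49.5% in non-depleted replicates 1 and 2. These genes thus held a similar share in each library.

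Among the adhesion receptors, Adgrg1 had the highest level per length. Adgrg1 (ENSMUSG00000031785, chromosome 8, 94974751 to 95014217, plus strand, GRCm38), also called GPR56, binds collagen III in the developing brain. It had 178 and 205 CPM in insulin-depleted replicates 1 and 2, against 173 and 206 CPM in non-depleted replicates 1 and 2. Its mean of 35.1 CPM per kilobase of exon placed it at rank 1227 of all 55536 genes. In every library it was above every other receptor on this scale, and the groups overlapped.

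The 3 adhesion receptors that followed were Adgrl4, Adgrl1 and Adgrf5, with mean levels of 17.4, 13.8 and 13.6 CPM per kilobase. Adgrl4 (ELTD1), a receptor of blood vessel endothelium, had 78.6 and 85.4 CPM in insulin-depleted replicates 1 and 2, against 77.1 and 78.5 CPM in non-depleted replicates 1 and 2, so that the groups did not overlap. Adgrf5 (GPR116), known for control of surfactant in the lung and also made by endothelium, had 115 and 131 CPM in insulin-depleted replicates, against 118 and 126 CPM in non-depleted replicates. Adgrl1, a latrophilin and receptor of the spider toxin alpha-latrotoxin, had 103 and 131 CPM in insulin-depleted libraries, against 110.5 and 129 CPM in non-depleted libraries. Per kilobase, Adgrl1 and Adgrf5 overlapped across libraries, so their order is not fixed by these data. Genes on the opposite strand overlap 15.6% of the Adgrl1 exon length, and since the use of strand in counting is not given, its level is uncertain.

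Further adhesion receptors were lower. Adgre5 (CD97), a leukocyte receptor that binds CD55, averaged 5.21 CPM per kilobase, but 24.7% of its exon length is overlapped by other genes, Ddx39 among them. The latrophilin Adgrl2 and Adgra3 (GPR125) both averaged 2.97 CPM per kilobase. Next came another latrophilin, Adgrl3, at 1.16 CPM per kilobase, and Adgrv1, a very large receptor mutated in Usher syndrome, at 0.962. Close to these lay Adgrg3, known from granulocytes (0.953 CPM per kilobase), and Adgra2 (0.923), a Wnt7 co-receptor of brain vessels. Adgrb3, a receptor of C1q-like proteins, averaged 0.741 CPM per kilobase and completed the 12 highest.

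**Figure D1:**
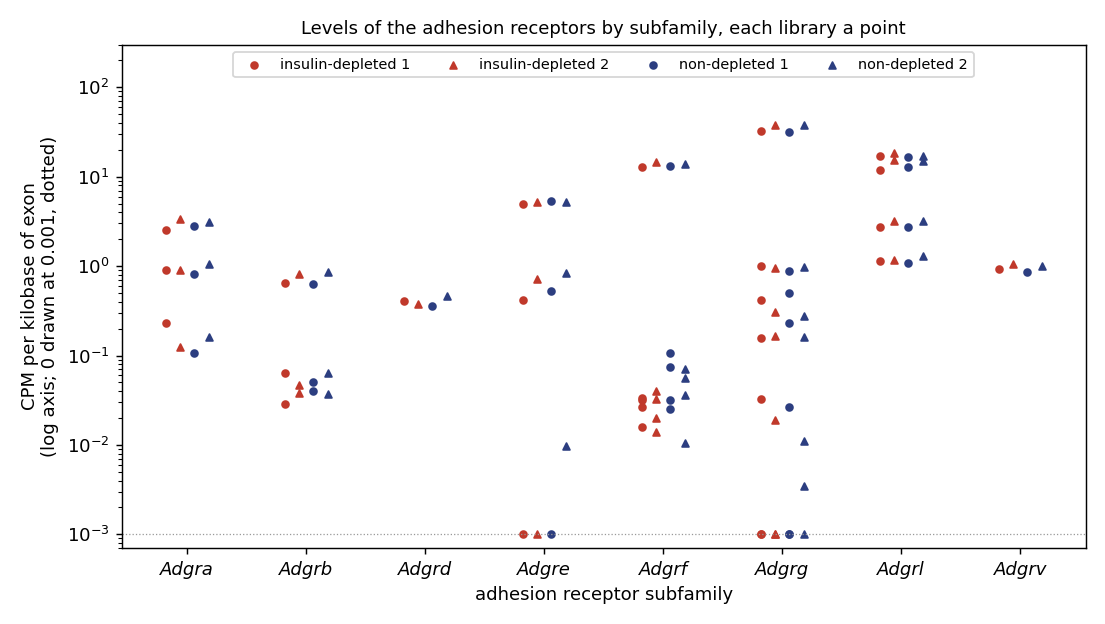
CPM per kilobase of exon on a log axis for all 27 adhesion receptors, grouped by subfamily, with insulin-depleted libraries in red, non-depleted libraries in blue, circles for replicate 1 and triangles for replicate 2; a level of 0 is drawn at 0.001. All 4 Adgrl receptors lie near or above 1 CPM per kilobase, while in Adgrf and Adgrg 1 receptor each stands far above the rest.

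Subfamilies differed in how evenly they were expressed. The subfamily plot shows that all 4 members of the Adgrl subfamily were expressed, each above 10 CPM. In the Adgrf subfamily only Adgrf5 was, since Adgrf1, Adgrf2, Adgrf3 and Adgrf4 stayed under 0.2 CPM on average. In the Adgrg subfamily Adgrg1 stood above Adgrg3 and Adgrg6, which had 0.953 and 0.376 CPM per kilobase, while Adgrg2, Adgrg4 and Adgrg5 had means under 1 CPM and Adgrg7 had no count. Adgrg6 (GPR126), needed for myelination by Schwann cells, and Adgre1 (F4/80), the classical marker of mouse macrophages, had means of 0.376 and 0.620 CPM per kilobase.

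Some of these receptors are neighbours in the genome. Of the 95 members, 17 lay in 8 groups within 200 kb of each other. On chromosome 8, Adgrg5, Adgrg1 and Adgrg3 lie within 121557 bases on the same strand, with means of 0.0552, 190.5 and 6.58 CPM. On chromosome 17, Adgrf1 and Adgrf5 lie together with means of 0.145 and 123 CPM, and the nearby pair Adgrf4 and Adgrf2 had 0.182 and 0.129 CPM. Per kilobase the contrasts were smaller but still wide, at 0.0176, 35.1 and 0.953 for the first group and 0.0376 and 13.6 for Adgrf1 and Adgrf5. Adjacent members thus had very different levels.

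Among the Gpr receptors, Gpr158 and Gpr108 led, with 16.7 and 16.4 CPM per kilobase, and their libraries overlapped. Gpr158 (ENSMUSG00000045967, chromosome 2, 21367542 to 21830547, plus strand, GRCm38) is a class C receptor reported to sense glycine. It had 136 and 135 CPM in insulin-depleted replicates 1 and 2, against 138 and 138 CPM in non-depleted replicates 1 and 2. Both insulin-depleted libraries were slightly below both non-depleted ones. Gpr108, a Golgi protein related to Gpr107, had 48.0 and 46.5 CPM in insulin-depleted libraries, against 43.8 and 49.3 CPM in non-depleted libraries.

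Gpr27 followed per kilobase of exon. Per kilobase of the longest transcript Gpr107 was above it, at 14.2 against 11.6 CPM, so this order depends on the length used. Gpr27 belongs to the SREB receptors (super-conserved receptors expressed in brain) and has been linked to insulin gene expression in beta-cell lines. It had 23.2 and 32.6 CPM in insulin-depleted replicates 1 and 2, against 21.9 and 32.8 CPM in non-depleted replicates 1 and 2. The groups overlapped, and in both the library numbered 2 was higher. Its relatives Gpr85 and Gpr173 averaged 6.21 and 1.21 CPM per kilobase, next to 11.6 for Gpr27.

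The other leading Gpr members were Gpr180 (9.91 CPM per kilobase), Gpr107 (6.81), Gpr161 (6.58), Gpr89 (6.29), Gpr45 (5.81), Gpr146 (5.02), Gpr19 (4.63) and Gpr137 (3.89). Gpr161 sits in the primary cilium and holds back Hedgehog signalling, and Gpr89 regulates the acidity of the Golgi. Gpr89 and Gpr137 share 27.9 and 15.4% of their exon length with genes on the opposite strand, so their levels are uncertain. Just below these 12 stood Gpr155, a cholesterol sensor of the lysosome, at 3.71 CPM per kilobase, and Gpr142 at 3.66, and the place of Gpr137 among the 12 is not fixed.

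**Figure D2:**
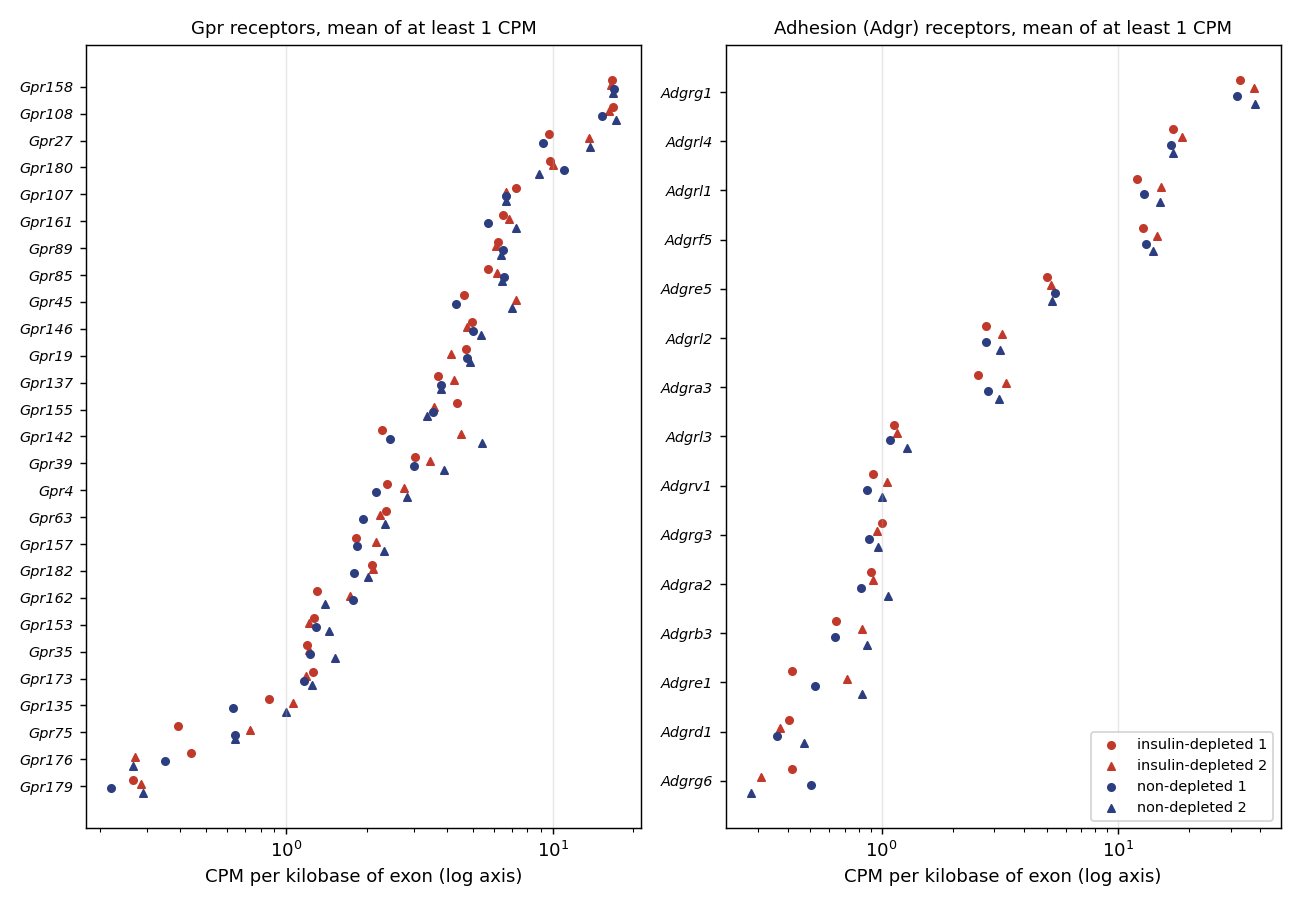
CPM per kilobase of exon on a log axis for 42 of the 43 receptors with a mean of at least 1 CPM, Gpr members on the left and adhesion members on the right, with insulin-depleted libraries in red, non-depleted libraries in blue, circles for replicate 1 and triangles for replicate 2. Adgrg1 leads at a mean of 35.1, and red and blue symbols intermingle, while circles and triangles part for Gpr27, Gpr45 and Gpr142.

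Of 4 receptors of zinc or amino acid metabolites, 3 had a mean of at least 1 CPM. Gpr142, a tryptophan receptor that promotes insulin and incretin release, had 2.54 and 5.03 CPM in insulin-depleted replicates 1 and 2, against 2.72 and 6.04 CPM in non-depleted replicates 1 and 2. Gpr39, the zinc receptor, had 9.18 and 10.4 CPM in insulin-depleted libraries, against 9.09 and 11.8 CPM in non-depleted libraries, with 39.9% of its exon length overlapped by Lypd1 on the opposite strand. Gpr35, which responds to kynurenic acid, had 5.76 and 5.89 CPM in insulin-depleted replicates, against 5.94 and 7.38 CPM in non-depleted replicates. The amino acid receptor Gpr139 had counts in only 1 library, non-depleted replicate 1 (0.124 CPM). None of the 3 tested members of this list was called by edgeR, against 0.0101% of all genes tested.

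Receptors with lipid ligands were near the limit of detection. Gpr183, the oxysterol receptor of lymphocytes, averaged 0.734 CPM, Gpr84 0.516 CPM and Gpr55 0.286 CPM. A gene on the opposite strand overlaps 39.5% of the Gpr84 exon length, so the level of Gpr84 is uncertain. Gpr34 had counts in 1 library and Gpr174 in none. Of these 5, 3 could be tested and 0 were called, against 0.0101% of all genes tested.

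Of the proton-sensing receptors, Gpr4, which is expressed in endothelium, had 6.85 and 7.97 CPM in insulin-depleted replicates 1 and 2, against 6.25 and 8.14 CPM in non-depleted replicates 1 and 2. Per kilobase it averaged 2.53 CPM, above Gpr65 (0.155) and Gpr132 (0.141). The level of Gpr65 is uncertain, since a gene on the opposite strand overlaps 24.7% of its exon length. Of the constitutively active receptors that raise cyclic AMP, Gpr3 averaged 0.186 CPM, while Gpr6 and Gpr12 had no counts. The class C member Gpr179 averaged 0.265 CPM per kilobase, next to 16.7 CPM per kilobase for Gpr158.

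Members typical of other cell types ranged widely. The 5 receptors listed as endothelial (Adgrf5, Adgrl4, Gpr182, Gpr4 and Adgra2) summed to 214 and 238 CPM in insulin-depleted replicates 1 and 2, against 213 and 227 CPM in non-depleted replicates 1 and 2. The 8 general endothelial markers, such as Kdr and Pecam1, summed to 980 and 1059 CPM in insulin-depleted libraries, against 968 and 1062 CPM in non-depleted libraries. Of 15 receptors listed as leukocyte receptors, 14 had some counts but 3 reached a mean of 1 CPM (Adgre5, Adgrg3 and Adgre1). General immune markers summed to 82.5 and 98.4 CPM in insulin-depleted libraries, against 85.2 and 99.8 CPM in non-depleted libraries, and Cd3e, which defines T cells, was at 0 in every library. In bulk RNA, fewer cells of a type and less RNA per cell cannot be told apart.

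Some members were not detected. Those with no count in any library included Gpr6, Gpr12, Gpr33, Gpr50, Gpr101, Gpr149, Gpr174 and Adgrg7. For these, 3 counts in a library correspond to 0.156 and 0.0463 CPM in insulin-depleted replicates 1 and 2, against 0.0618 and 0.0516 CPM in non-depleted replicates 1 and 2. These are the levels that a count of 0 allows if each count stands for 1 fragment. If both reads of a pair were counted, which is not stated, the levels allowed would be higher. Of 10 members on the X chromosome, 1 reached a mean of 1 CPM (Gpr173) and 3 had no counts. Of 7 members with a single exon block, Gpr27 and Gpr135 reached 1 CPM.

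The sequence before the start of the gene was compared with these levels, because promoters of widely expressed mouse genes are often rich in CG dinucleotides. RefSeq promoters (GRCm38.p6) were matched by symbol for 68 of the 95 members, and the letters CG were counted in the 250 bases before the RefSeq start (a CG reads as CG on both strands). Where RefSeq gives several starts, the one nearest to the start of the gene in GENCODE was taken. These starts lay within 500 bases of each other in 58 members and further apart in 10, Adgrg1 among them. Shown here are the receptors of each family with the highest mean CPM among those matched, and the first by name among those without counts, with each CG in capitals.
Gpr158: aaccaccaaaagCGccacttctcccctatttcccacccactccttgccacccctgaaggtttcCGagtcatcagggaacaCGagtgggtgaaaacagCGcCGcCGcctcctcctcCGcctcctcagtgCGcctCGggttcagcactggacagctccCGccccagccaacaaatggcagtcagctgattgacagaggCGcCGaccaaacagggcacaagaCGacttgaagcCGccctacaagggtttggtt
Adgrg1: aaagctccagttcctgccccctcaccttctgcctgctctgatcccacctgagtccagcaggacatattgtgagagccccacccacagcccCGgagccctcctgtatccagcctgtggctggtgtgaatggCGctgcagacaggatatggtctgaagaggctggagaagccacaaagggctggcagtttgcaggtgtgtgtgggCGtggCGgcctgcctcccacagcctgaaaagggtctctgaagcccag
Gpr101: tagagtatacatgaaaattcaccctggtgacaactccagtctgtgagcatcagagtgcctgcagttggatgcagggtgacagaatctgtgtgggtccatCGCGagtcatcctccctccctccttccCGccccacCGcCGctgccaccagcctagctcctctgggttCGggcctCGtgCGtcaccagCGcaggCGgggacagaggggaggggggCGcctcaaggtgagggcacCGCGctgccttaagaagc
Adgrg7: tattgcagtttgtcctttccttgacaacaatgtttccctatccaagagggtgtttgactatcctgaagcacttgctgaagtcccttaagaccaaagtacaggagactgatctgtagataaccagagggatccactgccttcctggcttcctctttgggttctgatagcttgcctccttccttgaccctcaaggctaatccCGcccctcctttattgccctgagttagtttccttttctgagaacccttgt

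These windows lie at chr2:21367317-21367566 (plus strand, Gpr158), chr8:94976859-94977108 (plus, Adgrg1), chrX:57503758-57504007 (minus, Gpr101) and chr16:56795859-56796108 (minus, Adgrg7). They hold 14, 4, 13 and 1 CG. The RefSeq start of Adgrg1 lies 2358 bases downstream of its GENCODE gene start given above, so its window lies inside the gene as GENCODE draws it, while those of Gpr158, Gpr101 and Adgrg7 are within 25 bases of the GENCODE start. Over members, the median was 11 CG in 35 receptors of at least 1 CPM and 3 in 33 receptors below it. At least 10 CG were found in 54.3% of the first set and in 27.3% of the second. With only the 58 members whose starts lie within 500 bases, a check added after seeing the data, these shares were 55.2 and 27.6%. Over all 16521 protein-coding genes with a promoter, the medians were 16 and 2 CG above and below 1 CPM, and 52.4% of promoters held 10 or more. Of protein-coding genes of at least 1 CPM, 74.1% had such a window, and of those below it 16.2%. These shares are descriptions without a test.

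**Figure D3:**
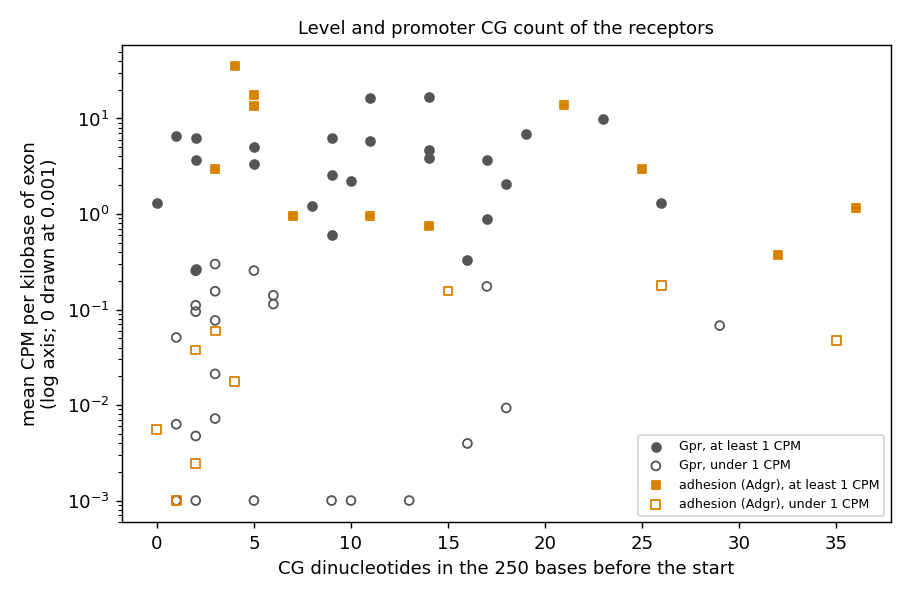
Mean CPM per kilobase of exon over the 4 libraries on a log axis (0 drawn at 0.001) against the number of CG dinucleotides in the 250 bases before the RefSeq start, for the 68 receptors with a RefSeq promoter; circles are Gpr and squares adhesion members, filled at a mean of at least 1 CPM and open below. Filled symbols reach from 0 to 36 CG, or from 1 to 36 where the RefSeq and GENCODE starts lie within 500 bases. Of the highest adhesion receptors 3 have at most 5, among them Adgrg1, whose starts lie further apart.

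The comparison made by the study is between insulin-depleted and non-depleted libraries, and for the receptors it asks whether removing insulin sequence alters their measured level. Of the 95 members, 61 passed the filter on low counts and were tested within a fit of all 19723 genes. None of them was called (edgeR quasi-likelihood test, adjusted p under 0.05, 0 higher and 0 lower), and 0 had an unadjusted p under 0.05, against 0.416% of all genes. Across all genes tested, 0.0101% were called in either direction, 0.0% higher and 0.0101% lower. DESeq2 also called 0 members, with 0 at an unadjusted p under 0.05, against 0.137% of all genes. Every adjusted p of the receptors was 1.00 in edgeR.

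Differences were small where counts were high. In the 43 members of at least 1 CPM the median log2 fold change, insulin-depleted over non-depleted, was -0.01, against -0.0031 in 14799 genes of that level. All 43 lay within 0.25 of 0 on the log2 scale, as did 91.8% of all such genes, and 28 lay within 0.1 (65.1%, against 71.5% of all such genes). The 95% intervals of 22 of the 43 members stayed inside -0.5 to 0.5, and those of 37 inside -1 to 1. The narrowest was that of Gpr158, with a log2 fold change of -0.03 and an interval from -0.21 to 0.15. The widest was that of Gpr142, from -1.36 to 1.00.

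**Figure D4:**
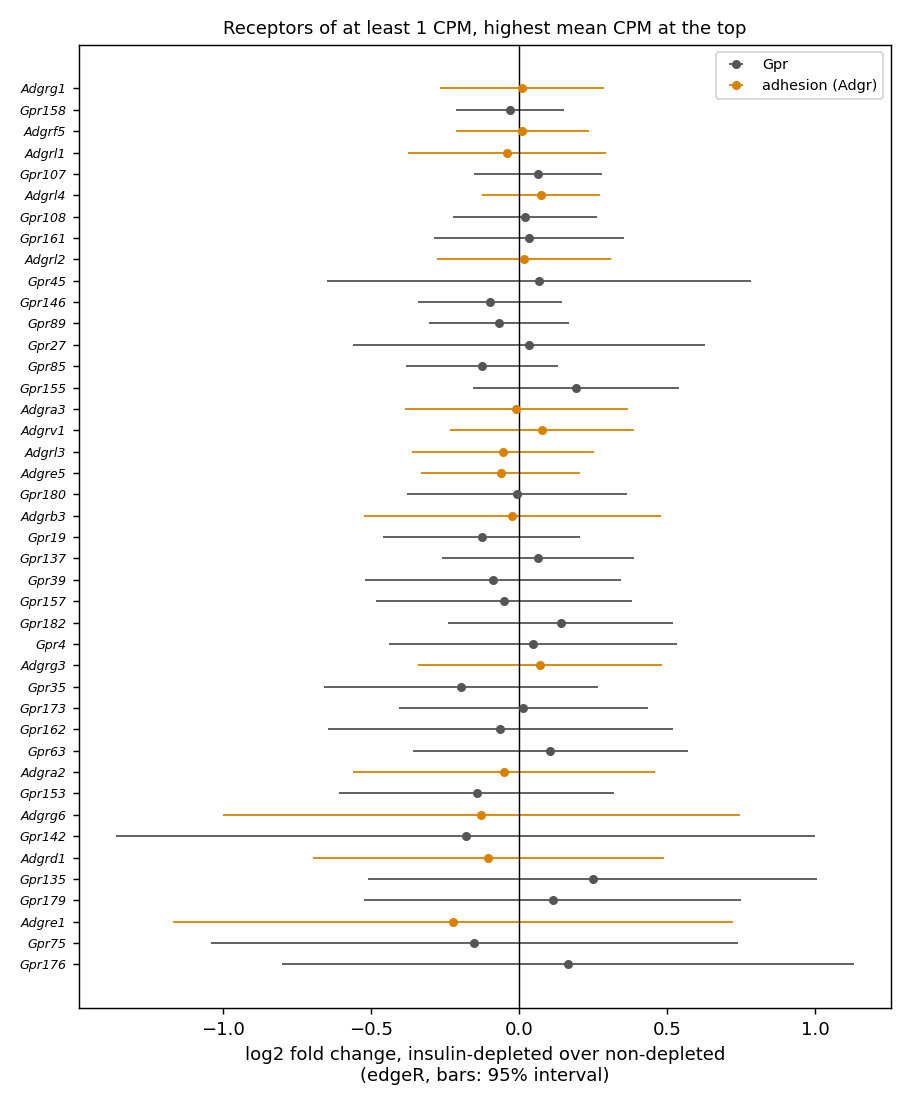
Log2 fold change, insulin-depleted over non-depleted, with its 95% interval from edgeR, for 42 of the 43 receptors of at least 1 CPM, ordered by mean CPM with the highest at the top; Gpr members are grey and adhesion members orange. Every interval includes 0, and intervals widen for lower members and for Gpr45, Gpr27 and Gpr142.

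The leading receptors kept close levels. Adgrg1 averaged 191 ± 18.8 CPM in insulin-depleted and 189.7 ± 23.3 CPM in non-depleted libraries (SD, n = 2 each), a log2 fold change of 0.01 (SE 0.11). Log2 fold changes were 0.07 for Adgrl4 (SE 0.08), -0.04 for Adgrl1 (SE 0.13) and 0.01 for Adgrf5 (SE 0.09). In Gpr members they were 0.02 for Gpr108 (SE 0.10), 0.03 for Gpr27 (SE 0.24) and -0.0080 for Gpr180 (SE 0.15). The signs of Adgrg1, Adgrl1, Adgrf5, Gpr108, Gpr27 and Gpr180 turned when single libraries were left out, and no direction is given for them. Leaving out 1 library also unbalances the replicate numbers between groups, so differences between numbers enter those values. Gpr27, for example, had a log2 fold change of 0.24 without insulin-depleted replicate 1 and -0.23 without insulin-depleted replicate 2.

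The members with the smallest unadjusted p among those of at least 1 CPM are given as values, since none passed the test. Above 0 these were Gpr155, Adgrl4 and Gpr182, an atypical chemokine receptor of endothelium. Gpr155 had 29.1 and 23.9 CPM in insulin-depleted replicates 1 and 2, against 23.7 and 22.4 CPM in non-depleted replicates 1 and 2, a log2 fold change of 0.19 (SE 0.14), which was 0.03 without insulin-depleted replicate 1 and 0.34 without insulin-depleted replicate 2. Both insulin-depleted values were above both non-depleted ones, but insulin-depleted replicate 2 exceeded non-depleted replicate 1 only slightly. Gpr182 had 8.30 and 8.33 CPM in insulin-depleted libraries, against 7.09 and 7.97 CPM in non-depleted libraries (log2 fold change 0.14, SE 0.15).

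Below 0 they were Gpr85, Gpr35 and Gpr146, the last known for a part in liver cholesterol metabolism. Gpr85 had 23.4 and 25.1 CPM in insulin-depleted replicates 1 and 2, against 26.7 and 26.2 CPM in non-depleted replicates 1 and 2 (log2 fold change -0.13, SE 0.10). Gpr146 had 33.6 and 32.2 CPM in insulin-depleted libraries, against 34.0 and 36.3 CPM in non-depleted libraries (log2 fold change -0.10, SE 0.10). Gpr35, whose values are given above, had a log2 fold change of -0.20 (SE 0.19), which was -0.04 without non-depleted replicate 2 and -0.33 without non-depleted replicate 1. For all 3 both insulin-depleted libraries were below both non-depleted ones.

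In some receptors the groups did not overlap. Of the 61 tested members, 6 (9.84%) had both insulin-depleted libraries above both non-depleted ones, against 10.2% of all genes tested. The opposite order was seen in 10 members (16.4%), against 9.33% of all genes tested. Those counts rest on 2 libraries a group and carry no test. Below 1 CPM single values scattered more, as in Gpr3, named after its values were seen: it had 0 and 0.123 CPM in insulin-depleted replicates 1 and 2, against 0.206 and 0.413 CPM in non-depleted replicates 1 and 2.

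Summed levels differed between groups by less than the SD within a group. The 27 adhesion receptors together had 682 ± 68.4 CPM in insulin-depleted and 679 ± 57.8 CPM in non-depleted libraries (SD, n = 2 each). The 68 Gpr members together had 634 ± 18.5 CPM in insulin-depleted and 633 ± 40.1 CPM in non-depleted libraries (SD, n = 2 each). In each family the difference between group means was below the SD of either group. That SD includes the difference between replicate numbers. Adhesion sums were 633 and 730 CPM in insulin-depleted replicates 1 and 2, against 638 and 720 CPM in non-depleted replicates 1 and 2. The Gpr sums were 621 and 647 CPM in insulin-depleted replicates 1 and 2, against 605 and 662 CPM in non-depleted ones.

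Whether depletion brings more low receptors over a count minimum was examined at equal depth. With each library thinned to 19316173 counts, 49 and 50.95 members had at least 10 counts in insulin-depleted replicates 1 and 2, against 48.15 and 49.4 in non-depleted replicates 1 and 2 (means of 20 thinnings). The group means were 49.98 ± 1.38 in insulin-depleted and 48.8 ± 0.884 in non-depleted libraries (SD, n = 2 each), a difference of 1.20 members that an exact two-sided permutation test did not separate (p = 0.667, with 0.33 the smallest that 2 against 2 libraries allow). At a minimum of 2 counts the difference was -2.08 members, and with thinning to a lower total it was -0.20, so it has no stable sign. Without thinning, 49 and 63 members passed in insulin-depleted replicates 1 and 2, against 63 and 64 in non-depleted replicates 1 and 2, the lowest number standing in the library with the lowest total. Member counts from 2 to 9 were even in 51 of 60 cases, and why was not tested. If both reads of a pair were counted, which the sources used here do not state, a minimum of 10 counts would stand for 5 fragments. With counts thinned in twos and a minimum of 5 pairs, a choice made after seeing the data, the difference was 0.275 members.

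Levels of several receptors differed between libraries with different replicate numbers, in the same direction in both groups. Of the 43 members of at least 1 CPM, 19 (44.2%) were higher in both libraries numbered 2 than in both numbered 1, against 38.6% of all 14799 genes of that level. The reverse was seen in 3 members (6.98%), against 29.4% of all genes. Among adhesion receptors 10 of 15 (66.7%) were higher in the libraries numbered 2, and among Gpr members 9 of 28 (32.1%). These are descriptions without a test, since the labels do not say what libraries with the same number share. The main edgeR fit used group alone, so differences between replicate numbers count as error in it and can widen its intervals. With a replicate block, 4.32% of all genes had an unadjusted p under 0.05, against 0.416% without it (edgeR).

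**Figure D5:**
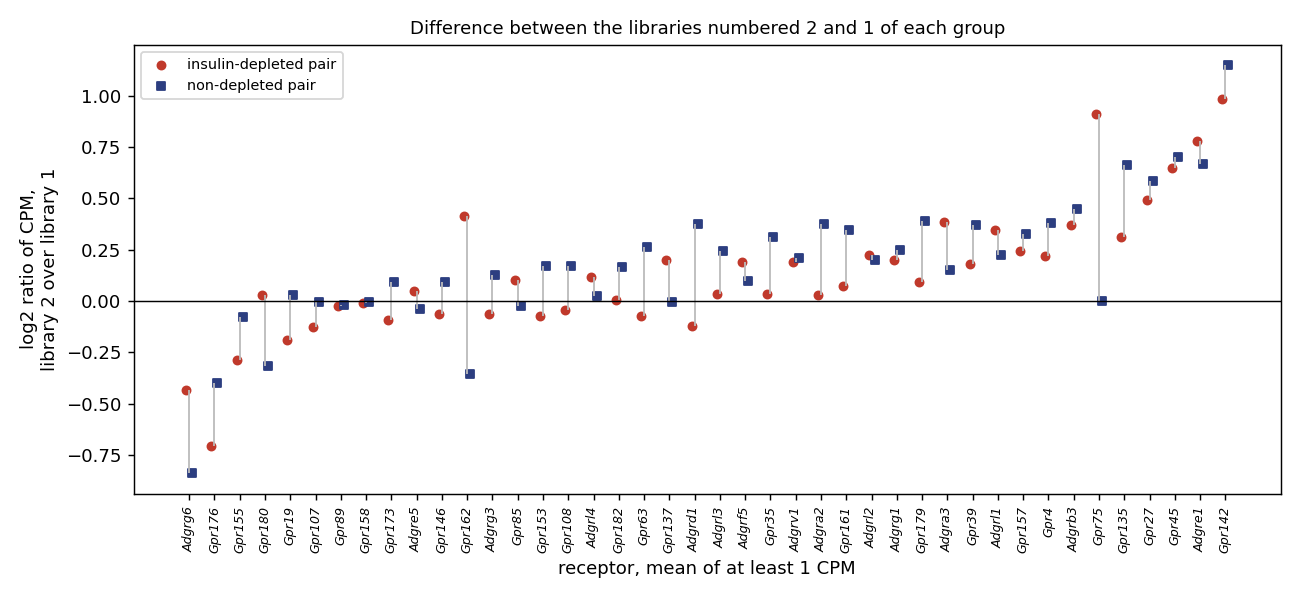
Log2 ratio of CPM in the library numbered 2 over that numbered 1, for 42 of the 43 receptors of at least 1 CPM ordered by their mean ratio, in the insulin-depleted pair (red circles) and the non-depleted pair (blue squares), with a line between them. Gpr142, Adgre1, Gpr45, Gpr27 and Gpr135 stand above 0 in both pairs, and Adgrg6 and Gpr176 below 0 in both.

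Of the receptors of at least 1 CPM that were higher in both libraries numbered 2, Gpr142 had the largest ratio, 2.10. Adgre1 followed at 1.64, with 1.35 and 2.31 CPM in insulin-depleted replicates 1 and 2, against 1.69 and 2.68 CPM in non-depleted replicates 1 and 2. Gpr45, an orphan receptor, had a ratio of 1.59, with 33.5 and 52.4 CPM in insulin-depleted libraries, against 31.4 and 51.0 CPM in non-depleted libraries. The ratios of Gpr27 and Gpr135 were 1.45 and 1.38. For Gpr45 and Gpr27 the values with the same number lay close together in both groups.

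Only 3 receptors of at least 1 CPM were higher in both libraries numbered 1. Adgrg6 had 5.08 and 3.76 CPM in insulin-depleted replicates 1 and 2, against 6.12 and 3.42 CPM in non-depleted replicates 1 and 2, a ratio of number 1 over number 2 of 1.56. Gpr176, which acts in the circadian clock of the brain, had a ratio of 1.48 at a mean of 1.29 CPM. The acinar markers moved with the numbers, all 8 tested being higher in both libraries numbered 1, and of the 8 endothelial markers 6 were higher in both numbered 2. Of 9 beta-cell markers, Ins1 and Ins2 included, 5 were higher in both libraries numbered 2 and 2 in both numbered 1. Over all genes of at least 1 CPM these shares were 38.6 and 29.4%. Higher in both numbered 1 were 5 of 8 ductal, 4 of 8 stellate and fibroblast, 3 of 5 alpha and 3 of 6 Schwann markers. In the same lists 2, 1, 1 and 1 were higher in both numbered 2. For 4 delta and gamma markers the numbers were 2 and 1. They were 2 and 4 for 8 tested immune markers and 1 and 2 for 5 erythroid markers. The part of cell composition in the receptor differences was not tested.

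The partners of these receptors were read from the same fit. It called 0.0101% of all genes tested, so 0 calls in a short list say little about its genes. Of 16 G-protein alpha subunits, 14 were tested and 0 were called, with 7 above and 7 below 0 and a median log2 fold change of -0.0017. Per kilobase the inhibitory subunit Gnai2 led at 183 CPM, followed by Gnai3 (84.0), the stimulatory subunit Gnas (69.6) and Gnaq (38.8). In CPM not divided by length, Gnas was the highest at a mean of 778, followed by Gnai2 (690) and Gnao1 (401). The order of Gnai2 and Gnas thus depends on division by length. All 8 arrestins and receptor kinases were tested, 4 above and 4 below 0, with 0 called (median -0.01), and Grk3 and Grk2 were the highest at 29.3 and 23.8 CPM per kilobase. Grk1, the rhodopsin kinase, named after its values were seen, had an unadjusted p under 0.05 but a level under 1 CPM and an adjusted p of 1.00 (edgeR).

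Ligands of the adhesion receptors were present in the same RNA. Of 18 listed ligands and partners 16 were tested, 6 above and 10 below 0, with a median log2 fold change of -0.01. Of these, 0 were called, against 0.0101% of all genes tested. The prion protein gene Prnp (190.0 CPM per kilobase) and the collagen IV gene Col4a1 (68.2), whose products bind Adgrg6, were the highest, followed by the latrophilin ligands Flrt1 (9.84) and Tenm3 (7.82). Col3a1, the collagen III gene and so the ligand gene of Adgrg1, was named after its values were seen and had 3.60 CPM per kilobase. Of 6 ligand genes and ligand enzymes of Gpr members, 2 were above and 4 below 0, with 0 called and a median of -0.07. Psap, reported as a precursor of Gpr37 ligands, had 470 CPM per kilobase. Pcsk1n, the precursor gene of a peptide reported to act on Gpr171, had 99.1 CPM per kilobase. The receptor genes themselves were near the limit of detection, Gpr37 at a mean of 0.024 CPM and Gpr171 at 0.150 CPM.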

How the data were processed

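Deposited gene counts of 4 islet libraries were analysed as raw whole-number counts with no normalization by the authors. The deposited non-depleted columns were entered under the unit of expected counts only because a unit check read the word size in their names as a size column; their values are whole and rounding changed nothing. Per the submitters' processing notes, STAR 2.7.11b and cutadapt 4.8 were used with GRCm38, also called mm10. How reads were counted, strand and multi-mapping included, is not given in the sources used here. Identifiers and symbols of all 55536 genes matched GENCODE M21.

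Levels are CPM of totals without Ins1 and Ins2, also per kilobase of exon. The comparison used edgeR 4.0.16 in R 4.3.3 (filterByExpr, TMM, glmQLFit and glmQLFTest on group alone), with Benjamini-Hochberg adjustment over 19723 genes and a threshold of 0.05. DESeq2 1.42.0, other scalings, no filter, counts divided by 2, a replicate block and leaving out each library were alternatives. The edgeR step was tested on simulated data. Floors of 3 counts cover counting error only. Detected members were counted at a minimum of 10 counts in 20 thinnings.

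Members and lists were chosen with earlier results of these data known. Named were the 12 highest per kilobase in each family, the 3 of smallest p in each direction among those of at least 1 CPM, up to 5 in each direction that separated the replicate numbers, and list members. Reads were called uncertain where at least 10% of exon length was overlapped or 10% of 31-base stretches were shared, which held for 9 members. Promoters came from RefSeq. Protein sequences were not used here. Values of a few single members are not reported here, though the counts over members include them.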

Additional observations from a re-analysis of the deposited data

How the results depend on the processing

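The count of called receptors was 0 under every alternative run, including the replicate block, DESeq2, the fit without a filter and each fit without 1 library. Replicate numbers are shared between groups without a stated common source, and with 2 pairs they were not taken as pairing. Deviations from the group means correlated at r = 0.845 over 11597 genes of at least 5 CPM, a description across genes. With the replicate block, called genes numbered 9 (2 higher, 7 lower) in place of 2, none a receptor, and 2 receptors (Gpr155 and Gpr3) had an unadjusted p under 0.05, against 4.32% of all genes. The other alternatives gave 2 called genes.

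Of 130 fold changes of named receptors under alternatives, 118 kept their direction and 12 reversed. Most of the 130 came from refits of the same 4 libraries, which differ little. Among those refits only Gpr180 reversed, with the replicate block (log2 fold change 0.023). Every other reversal came from leaving out 1 library. Leaving out 1 library at a time gave log2 fold changes of -0.051 to 0.097 for Gpr108, -0.23 to 0.34 for Gpr27, -0.17 to 0.17 for Gpr180, -0.10 to 0.13 for Adgrg1, -0.21 to 0.11 for Adgrl1 and -0.078 to 0.090 for Adgrf5. The difference in detected receptors, 1.20 as reported, was -2.08 at a minimum of 2 counts, -7.50 without thinning and -0.20 when thinned to a lower total, and ranged over 0.225 to 2.18 without single libraries. Leaving out 1 library at a time also gave 0.03 to 0.34 for Gpr155, -0.33 to -0.04 for Gpr35, 0.02 to 0.12 for Adgrl4 and 0.07 to 0.21 for Gpr182 (log2 fold changes). Gpr142 replaced Gpr137 among the 12 highest Gpr levels without either library numbered 1, and Gpr155 replaced it when levels were not divided by length. The causes were not tested. Depth limits receptors under 1 CPM, whose intervals are wide.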
